A study of Caenorhabditis elegans with 2 samples.

Results

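The 10 genes described here process, transmit and remove the Notch signal in Caenorhabditis elegans: sel-10, pen-2, aph-1, aph-2, sel-12, hop-1, sup-17, lag-1, sel-8 and glp-1. They were taken by name and located in the WBcel235 annotation (Ensembl, the genome build also called ce11), and they are 10 of 19973 protein-coding genes. For each gene, every LIN-39 region whose summit, the highest point of the region, lay in the gene or within 5000 bp of either end was collected from 4 lists. LIN-39, a Hox protein that patterns the mid-body, was profiled for DNA binding by chromatin immunoprecipitation and sequencing (ChIP-seq) in L1 larvae, the first larval stage, in 1 group of 2 biological replicates. The animals were whole larvae of mixed sex of strain OP18, which has the genotype unc-119(ed3) III; wgIs18, and both replicates share these alleles. The labels name eGFP-lin-39 as the target and describe an insertion targeting lin-39. Weak binding in many cells and strong binding in few cells of the larva cannot be told apart.

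Notch receptors of C. elegans, LIN-12 and GLP-1, are cut by an ADAM protease when a ligand binds and then inside the membrane by gamma-secretase, a complex of presenilin (SEL-12 or HOP-1), nicastrin (APH-2), APH-1 and PEN-2. The released intracellular part enters the nucleus, where it joins the DNA-binding protein LAG-1 (CSL) and the Mastermind-type protein SEL-8 to switch on target genes. SEL-10 is an F-box protein that marks the intracellular part for degradation by an SCF ubiquitin ligase. In the larva, Notch signalling acts with other pathways in the vulval precursor cells, which also need LIN-39.

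The authors' optimal list held 1488 peaks, with signals from 50.03 to 607.5 and a median of 81.3. The pooled, replicate 1 and replicate 2 lists each held 30000 ranked regions, and the optimal peaks were the 1488 strongest pooled regions. The authors label the pooled list as peaks and background, so a weak ranked region is not by itself evidence of binding. Signal is the authors' value per region, with no stated scale, and its maximum was 387.8 in replicate 1 and 231.3 in replicate 2. Strength is therefore compared by rank, where rank 1 is the strongest region of its list. The lists hold no read numbers, so the sequencing depth behind them is unknown.

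Of the 10 genes, 3 had an optimal peak in the gene or within 5000 bp: sel-10, pen-2 and sel-8. The same was true of 19.4% of all protein-coding genes. In the start window, from 2000 bp upstream to 500 bp downstream of the gene start, 2 of the 10 genes had an optimal peak, sel-10 and pen-2, against 8.28% of all protein-coding genes. Both counts are about 1 gene more than the background share of 10 genes. All 3 optimal summits were intergenic, and 74.4% of all optimal summits were intergenic too. The sel-10 summit lay in the start window of no other gene, whereas the pen-2 summit was shared with the divergent gene T28D6.6 and the sel-8 summit lay at the start of mrps-31. Below are the bases around these 3 summits, on the plus strand of WBcel235, with the 21 bases centred on the summit in capitals. Annotated exons were left out, which shortened the pen-2 window to 183 bp. The sel-8 window lies outside the start-window rule for printing sequences and was added after its values were seen.
sel-10 upstream region, V:13819096-13819296: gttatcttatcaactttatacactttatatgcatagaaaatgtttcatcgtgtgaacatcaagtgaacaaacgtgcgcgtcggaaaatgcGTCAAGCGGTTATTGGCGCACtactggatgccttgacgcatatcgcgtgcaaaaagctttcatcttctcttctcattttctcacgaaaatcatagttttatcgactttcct
pen-2 and T28D6.6 intergenic region, III:11343139-11343321: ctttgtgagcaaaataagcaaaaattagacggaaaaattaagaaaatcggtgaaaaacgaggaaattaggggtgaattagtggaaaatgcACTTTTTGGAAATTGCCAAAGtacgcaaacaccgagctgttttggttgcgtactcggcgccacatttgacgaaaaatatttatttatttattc
mrps-31 upstream region in the sel-8 flank, III:3630380-3630580: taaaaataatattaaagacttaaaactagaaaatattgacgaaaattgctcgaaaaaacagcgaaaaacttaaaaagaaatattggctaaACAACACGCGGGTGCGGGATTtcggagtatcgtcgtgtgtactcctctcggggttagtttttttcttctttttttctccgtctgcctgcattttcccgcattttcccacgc

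sel-10 (WBGene00004767, V:13819361-13822980, plus strand) had the strongest region of the 10 genes. Its optimal peak, V:13819026-13819365, had its summit at 13819196, 165 bp upstream of the gene start. The signal was 83.02, which ranked 716 of the 1488 optimal peaks. That is close to the middle of the list, whose median signal was 81.3. The overlapping region ranked 905 in replicate 1, with a signal of 44.24, and 886 in replicate 2, with a signal of 31.45. The replicate ranks were alike, and both were inside the strongest 1488 of their own lists, which held for no other of the 10 genes. The nearest neighbouring start, that of the divergent gene F55B12.2, was 2219 bp from the summit. The remaining pooled regions upstream of sel-10 were weak: a region 2146 bp upstream ranked 24484 and a region 3722 bp upstream, in a coding exon of F55B12.2, ranked 23101. No pooled or replicate region had its summit in the sel-10 gene.

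pen-2 (WBGene00003975, III:11343322-11344147, plus strand), the smallest gamma-secretase subunit, had the only optimal peak among the 5 subunit genes. The peak, III:11343069-11343408, had its summit at 11343239, 83 bp upstream of pen-2 and 131 bp upstream of T28D6.6. T28D6.6 runs the other way, its start is 214 bp from that of pen-2, and the intergenic window printed above serves both. The pooled signal was 56.36, rank 1242. The overlapping region ranked 1186 in replicate 1 (signal 37.34) and 2033 in replicate 2 (signal 19.93), so it lay inside the strongest 1488 regions of replicate 1 but not of replicate 2. A weaker pooled region lay in a pen-2 intron, 500 bp downstream of the start, with a signal of 19.56 and rank 13599. It overlapped a region ranked 4600 in replicate 1 and 20276 in replicate 2. The other 5 pooled regions around pen-2 ranked between 13025 and 28270, and 4 of all 7 had another gene's start nearest.

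sel-8 (WBGene00004765, III:3612951-3627142, minus strand), which encodes the Mastermind-type co-activator, had an optimal peak in its upstream flank. The peak, III:3630310-3630649, had its summit at 3630480, 3338 bp upstream of the sel-8 start and 108 bp upstream of the start of mrps-31. mrps-31, which encodes a mitochondrial ribosomal protein, lies on the same strand and ends 91 bp before sel-8 begins. The pooled signal was 50.48, rank 1470, close to the end of the optimal list: the lowest optimal signal was 50.03 and the next pooled region had 50.02. The overlapping region ranked 1373 in replicate 1 (signal 34.42) and 6206 in replicate 2 (signal 12.84). The replicates thus placed it differently, and it stood among the strongest 1488 regions in replicate 1 only. A further region 4501 bp upstream of sel-8 and 1271 bp upstream of mrps-31 ranked 2949 in the pooled list, 4058 in replicate 1 and 3037 in replicate 2. The start nearest to its summit, 812 bp away, was that of C32A3.6, which is not annotated as protein-coding. The optimal summit also lay in the start window of C32A3.6, 1975 bp upstream of it. Within sel-8 itself there were 7 pooled regions, all in introns. The strongest of these lay 8856 bp into the gene, 245 bp from an internal transcript start, with a pooled rank of 5416. It overlapped a region ranked 14991 in replicate 1 and none in replicate 2.

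**Figure D1:**
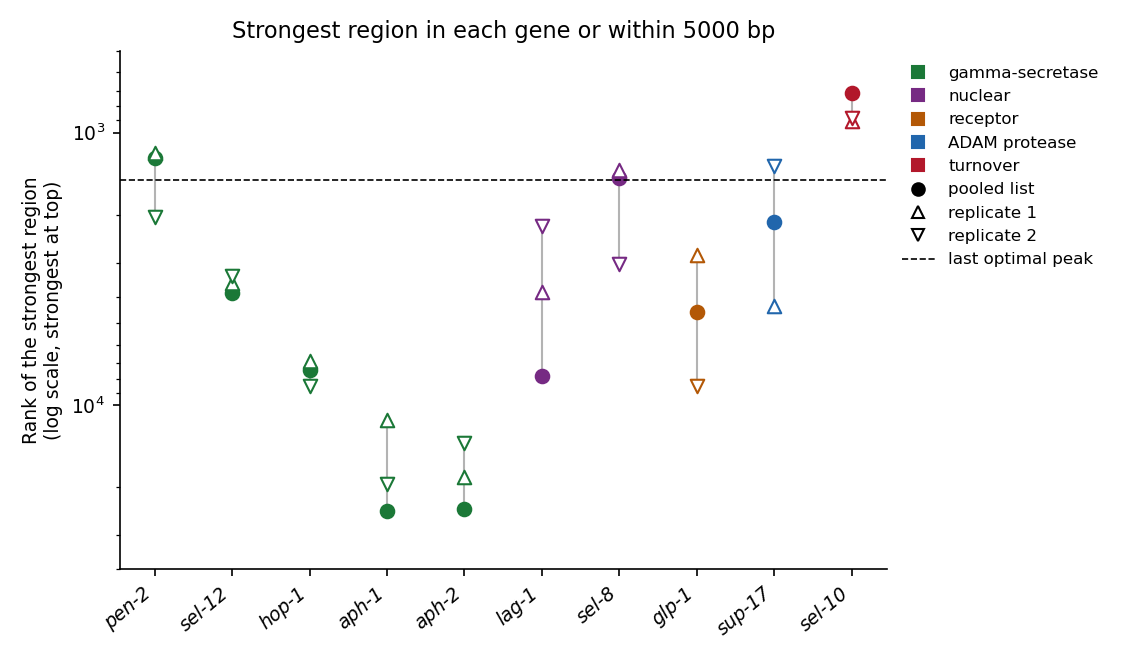
Rank of the strongest region in each gene or within 5000 bp (log axis, strongest at the top) in the pooled list (filled circles), replicate 1 (upward triangles) and replicate 2 (downward triangles), coloured by role; each marker is the strongest region of its own list, which need not be the same place. The dashed line is the last optimal peak; sel-10 lies above it in all 3 lists, with ranks of 716, 905 and 886, while aph-1 and aph-2 lie lowest.

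The presenilins are the catalytic subunits of gamma-secretase, and neither gene had an optimal peak in reach. sel-12 (WBGene00004769, X:915867-918290, plus strand) had 8 pooled regions, 4 of them in its start window. The strongest, 625 bp upstream, had a pooled signal of 30.74 and rank 3876. It overlapped a region ranked 3561 in replicate 1 and none in replicate 2. The region found in both replicates lay in an intron 458 bp downstream of the start and ranked 11035 in the pooled list, 21696 in replicate 1 and 4133 in replicate 2. So the sel-12 start had ranked regions in both replicates, but the strongest was not the same one. Replicate 2 had its strongest region 3099 bp upstream of sel-12, rank 3357, near the start of F35H12.6. No optimal peak lay closer than 31370 bp to sel-12.

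hop-1 (WBGene00001985, I:4208515-4210341, minus strand), the second presenilin gene described here, had 7 pooled regions and none in the gene. The strongest ranked 7416 (signal 24.49) and lay 2536 bp upstream in a coding exon of the neighbouring gene C18E3.1, 145 bp inside that gene. The start of C18E3.10, which is not annotated as protein-coding, was nearer, 92 bp from that summit. This strongest region overlapped regions ranked 6877 in replicate 1 and 22297 in replicate 2. A region 15 bp past the gene end, in a 3' UTR of C18E3.3, had a signal of 20.36 and rank 12299, and overlapped a region ranked 12111 in replicate 1 and none in replicate 2. The region closest to the hop-1 start, 198 bp upstream, had a signal of 19.18 and rank 14314, and swsn-2.2 starts 440 bp from the same summit on the other side. That upstream region overlapped none in replicate 1 and one ranked 17310 in replicate 2. hop-1 thus had only weak ranked regions near its start, and the nearest optimal peak was 29898 bp away.

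aph-1 and aph-2 had the weakest regions of the 10 genes by their best rank in each list, and the fewest in the pooled list. aph-1 (WBGene00000147, I:9232068-9233560, minus strand), a membrane subunit, had 1 pooled region, with a signal of 15.01 and rank 24485. It lay 323 bp past the gene end in an intron of gip-2 and overlapped only a replicate 2 region, ranked 21934. aph-2 (WBGene00000148, I:10340997-10345654, plus strand), the nicastrin gene, also had 1 pooled region, with a signal of 15.13 and rank 24135. It lay in an aph-2 intron 1960 bp downstream of the start and overlapped no region in either replicate. The best ranks within each replicate were 11306 in replicate 1 and 19445 in replicate 2 for aph-1, and 18434 in replicate 1 and 13834 in replicate 2 for aph-2. The genes differ in their distance to optimal peaks: the nearest was 5202 bp from aph-1, 39 bp upstream of lipt-1 with rank 1341, and 129136 bp from aph-2.

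lag-1 (WBGene00002245, IV:6095407-6110655, plus strand) encodes CSL, the DNA-binding protein of the pathway, and had no optimal peak in reach. Its 6 pooled regions comprised 4 in the gene and 2 past its end. The strongest lay in an intron 1917 bp downstream of the first start, with a signal of 24.04 and rank 7830. It overlapped a region ranked 2202 in replicate 2 and none in replicate 1. The strongest replicate 1 region in reach, rank 3848, lay 4897 bp past the gene end instead, 70 bp from the start of the noncoding gene 21ur-2964. Only 1 pooled region of lag-1, 2772 bp past the gene end with rank 18347, overlapped regions in both replicates. Within the gene replicate 1 had 1 region and replicate 2 had 9, so the regions in lag-1 came mainly from replicate 2. The nearest optimal peak was 47861 bp away.

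glp-1 (WBGene00001609, III:9092241-9099698, plus strand), the Notch receptor best known for germline proliferation, had 2 pooled regions and both were found in both replicates. The stronger had a signal of 28.98 and a pooled rank of 4544, with rank 2823 in replicate 1 (signal 24.02) and 8487 in replicate 2 (signal 11.37). It lay 2692 bp upstream of glp-1, but 174 bp upstream of the start that mrpl-44 and mccc-2 share. The other lay in a glp-1 intron 1653 bp downstream of the start, with a pooled rank of 10009, a rank of 8176 in replicate 1 and 28665 in replicate 2. The receptor gene thus had no region among the strongest 1488 of any list, and its nearest optimal peak was 7799 bp upstream.

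sup-17 (WBGene00006324, I:8792964-8797295, plus strand) encodes the ADAM10-type protease that makes the cut outside the membrane. Its strongest region lay 524 bp upstream with a signal of 40.34 and rank 2125, outside the optimal list. It overlapped a region ranked 6801 in replicate 1 (signal 17.56) and 1330 in replicate 2 (signal 25.10). The replicates thus differed in the order opposite to that at sel-8: sup-17 was inside the strongest 1488 regions of replicate 2 and not of replicate 1. No other protein-coding start had this summit in its window, although the noncoding gene DY3.11 starts 33 bp away. The strongest replicate 1 region near sup-17, rank 4340, lay 4959 bp upstream. The nearest optimal peak, rank 117 with a signal of 194.8, lay 5984 bp upstream of sup-17 and 1565 bp upstream of mfb-1.

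**Figure D2:**
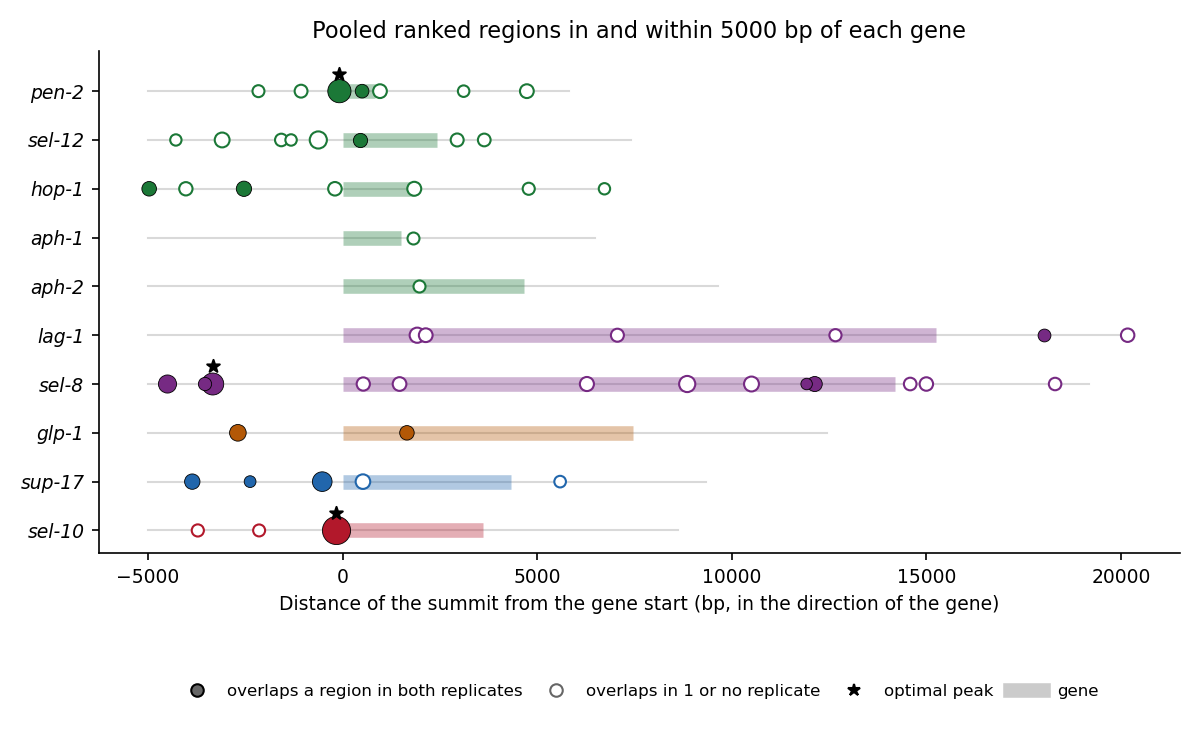
Pooled ranked regions along each of the 10 genes: the horizontal axis is the distance of the summit from the gene start in bp, bars are the genes, grey lines the windows searched, and colours the roles used for the ranks. Circle area grows with pooled signal, filled circles overlap a region in both replicates and stars mark optimal peaks; the stars of sel-10 and pen-2 sit at the start, at 165 and 83 bp upstream, and that of sel-8 sits 3338 bp upstream.

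Comparison of the gamma-secretase genes with the nuclear genes gave 1 gene with an optimal peak in reach on each side, pen-2 of 5 and sel-8 of 2, beside 19.4% of all protein-coding genes. In the start window the count was 1 of 5 gamma-secretase genes and 0 of 2 nuclear genes, beside 8.28% of all protein-coding genes. Without replicate 1, with the strongest 1488 regions of replicate 2 in place of the optimal list, neither pen-2 nor sel-8 was counted. Without replicate 2 both were. The sel-8 peak also has mrps-31 as its nearest start, so counting the nearest start only left 0 of 2 nuclear genes. Whether mrps-31 and sel-8 share a transcript from the mrps-31 start was not tested. The strongest pooled ranks overlapped between the groups, from 1242 to 24485 over the gamma-secretase genes and from 1470 to 7830 over the nuclear genes. The nuclear windows, 25249 and 24192 bp, were longer than any gamma-secretase window (at most 14658 bp), which gives more room for a strong region. With 5 genes against 2, and genes that are not replicates, no test was made.

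The groups had about the same density of pooled regions. The gamma-secretase genes had 24 pooled regions in 61.228 kb of window, 3.92 per 10 kb, and the nuclear genes had 19 in 49.441 kb, 3.84 per 10 kb. Adding glp-1 to the nuclear genes gave 3.14 per 10 kb. By position, 3 of the 24 gamma-secretase regions (12.5%) lay in the genes themselves, against 11 of the 19 nuclear regions (57.9%). These shares are near the part of the window that the genes fill, 18.3% for the gamma-secretase genes and 59.5% for the nuclear genes. The nuclear genes are longer, 15249 bp for lag-1 and 14192 bp for sel-8, while the gamma-secretase genes range from 826 to 4658 bp. By nearest start, 9 of the 24 gamma-secretase regions had the gene's own start as the nearest protein-coding start, against 12 of the 19 nuclear regions. The matching share over all genes was not computed and the gene lengths differ, so no group difference is drawn from these counts. The replicates gave opposite orders: the gamma-secretase density was 3.92 in replicate 1 and 2.45 in replicate 2, and the nuclear density was 2.83 in replicate 1 and 5.46 in replicate 2. Which group was denser therefore depended on the replicate. Both replicates had a region at 5 of the 24 gamma-secretase regions and at 6 of the 19 nuclear regions. Those 6 include neighbouring sel-8 regions that overlapped the same replicate regions.

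**Figure D3:**
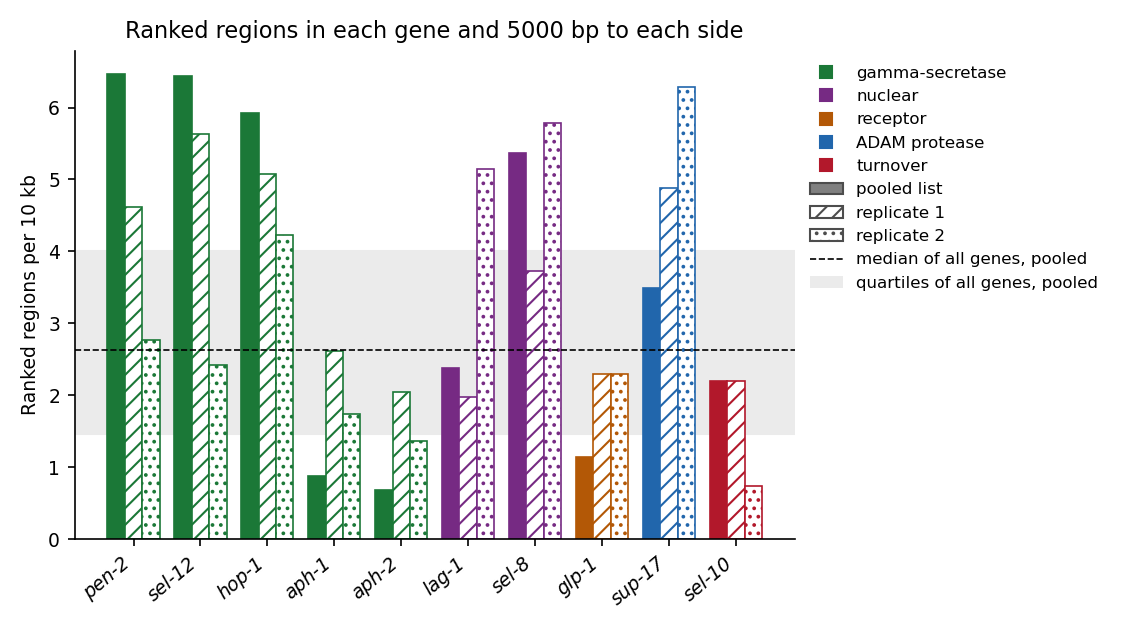
Ranked regions per 10 kb in each gene and 5000 bp to each side, in the pooled list (filled bars), replicate 1 (hatched) and replicate 2 (dotted), coloured by role; the dashed line and grey band are the median and quartiles of all protein-coding genes in the pooled list, 2.63 and 1.45 to 4.01. pen-2, sel-12, hop-1 and sel-8 lie above the band in the pooled list and glp-1, aph-1 and aph-2 below it, while lag-1, sel-8 and sup-17 had their highest density in replicate 2.

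Within the gamma-secretase genes the pooled densities split into separate levels, but the gap was small in replicate 2. pen-2, sel-12 and hop-1 had 6.47, 6.44 and 5.92 pooled regions per 10 kb, while aph-1 and aph-2 had 0.870 and 0.682. The same 3 genes were above aph-1 and aph-2 in replicate 1, with 4.62, 5.63 and 5.07 against 2.61 and 2.05. In replicate 2 they had 2.77, 2.41 and 4.23 against 1.74 and 1.36, which was 3, 3 and 5 regions against 2 and 2. Over all protein-coding genes the median was 2.63 in the pooled list, 2.63 in replicate 1 and 2.69 in replicate 2. In replicate 2 sel-12 lay below that median and pen-2 close to it. sel-10, with the strongest peak of the set, had few regions: 3 in the pooled list and 1 in replicate 2, in a window of 13620 bp. A strong peak and a high density of regions thus did not go together at sel-10.

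Having some ranked region in reach was common in the genome. All 10 genes had a pooled region within 5000 bp, as did 89.8% of all protein-coding genes. All 10 also had one in replicate 1, against 91.2% of all genes, and in replicate 2, against 92.5%. In the start window the pooled list had a region at 5 of the 10 genes, sup-17, sel-12, hop-1, pen-2 and sel-10, against 54.9% of all genes. The start-window count was 5 of 10 in replicate 1, against 55.6% of all genes, and 7 of 10 in replicate 2, against 56.5%. The pooled and replicate 1 counts are near the shares of all genes, and the replicate 2 count is only somewhat above its share. The counts thus say little about these genes. The replicate 2 count includes weak regions at sel-8, hop-1 and glp-1, ranked 14395, 17310 and 21541. The median over the 10 genes of the strongest pooled rank was 4210, and over all genes with a region it was 5501. A longer window gives more room for a strong region. The windows of the 10 genes ran from 10826 to 25249 bp, against a median of 12027 bp over all genes.

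Taking the 53 pooled regions of the 10 genes together, 26 had the described gene's own start as the nearest protein-coding start and 27 had another gene's. The matching share over all genes was not computed. By position, 21 were in introns, 19 intergenic, 8 in coding exons and 5 in 3' UTRs. Over all pooled regions the shares were 40.6% in introns, 43.4% intergenic, 9.84% in coding exons and 4.46% in 3' UTRs. Overlap of at least 1 bp with a region of both replicates was found for 17 of the 53, or 32.1%, against 34.99% of all pooled regions. A further 12 overlapped replicate 1 only, 16 replicate 2 only and 8 neither.

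Short motifs were sought within 100 bp of each summit on both strands. They were the composite TGATNNAT, known for Hox proteins bound with a PBC partner, the homeodomain core TAATTA, and TGGGAA, the core of CSL sites. Neither the composite nor the homeodomain core occurred at the sel-10, pen-2 or sel-8 optimal summits. Over all 1488 optimal summits 253 held the composite and 7.8% held the homeodomain core. The CSL core occurred at 1 of the 3, on the minus strand 92 bp from the sel-8 flank summit near the end of the sequence printed above, against 10.8% of all optimal summits. Among the 53 pooled regions, 5 held the composite, 7 the homeodomain core and 7 the CSL core, against 15.0%, 12.3% and 11.4% of all pooled regions. A match is a description of these letters, not a binding site. The median GC content at the 3 optimal summits was 37.8%, against 40.3% over all optimal summits.

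Of the other Notch pathway genes, 46 of 47 listed were matched to the annotation, and 12 of the 46 had an optimal peak within 5000 bp, beside 19.4% of all protein-coding genes. In the start window 5 of the 46 had one, beside 8.28% of all genes: spr-2, sel-9, epn-1, rbx-1 and lst-4. None of the 15 ligand and co-ligand genes had an optimal peak in reach, beside 19.4% of all protein-coding genes. This count depended on the list used. The strongest pooled region of osm-11 ranked 1584 with a signal of 48.3, a little below the lowest optimal signal of 50.03. In replicate 2 osm-11 had a region at rank 563, and in replicate 1 dos-3 had one at rank 1488. The strongest pooled region of lag-2, which encodes a DSL ligand of LIN-12 and GLP-1, ranked 5234 with a signal of 27.6. The second receptor gene, lin-12, had its strongest pooled region at rank 3435 with a signal of 32.1. Like glp-1, it had no optimal peak in reach.

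Among genes that act beside gamma-secretase and SEL-10, optimal peaks were in reach of 2 of 5 presenilin suppressors and 3 of 5 trafficking genes. For SCF and endoplasmic reticulum degradation it was 2 of 6, beside 19.4% of all protein-coding genes. In the start window the counts were 1 of 5, 2 of 5 and 1 of 6, beside 8.28%. These are small groups and no test was made. Among 5 suppressors of presenilin mutants, spr-2, a gene of the SET nucleosome assembly family, had a peak 125 bp upstream with a signal of 117.5 and rank 376, shared with C27B7.2. The peak in the flank of spr-5, which encodes a histone demethylase, lay near the start of eif-3.J with rank 965. Among 5 trafficking genes, epn-1, the epsin gene, had 3 peaks, of which the strongest lay 548 bp upstream and ranked 245 (signal 146.3). The other 2 lay 4951 and 7537 bp downstream of the epn-1 start and nearer to other starts, those of T04C10.3 (rank 312) and atf-4 (rank 989). sel-9, a p24-family cargo gene, had one 103 bp upstream with rank 1034, shared with W02D7.6. For sel-5, which encodes a kinase of the AAK1 type, the peak, rank 967, lay at the starts of idhg-1 and mlcd-1. Of the 6 genes for SCF and endoplasmic reticulum degradation, rbx-1, the RING subunit that works with F-box proteins such as SEL-10, had a peak 338 bp upstream with a signal of 51.4 and rank 1424. No other start shared the rbx-1 summit. For sel-11, which encodes an HRD1-type ubiquitin ligase, the peak in reach, rank 48, lay 190 bp upstream of F55A11.1 and 2753 bp upstream of sel-11.

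Of the 13 matched target genes, 5 had an optimal peak in reach, beside 19.4% of all protein-coding genes, and 1 of them, lst-4, had it in the start window, beside 8.28%. The summit at lst-4, a sorting nexin gene, lay 1234 bp upstream with rank 686 and was nearer to ccar-1. Peaks in reach of hlh-27, a bHLH gene of the REF-1 family, ranked 49 and 450, and ins-13 had the nearest start to both. For hlh-29 the peak ranked 319 and lay past the gene end, 4105 bp downstream of the gene start. For lst-1, a gene of germline stem cells, the peak ranked 1303 and lay nearest to set-18. lip-1, which encodes a MAP kinase phosphatase, had a peak 3767 bp upstream with rank 572. The median of the strongest pooled ranks was 2854 over the 45 of these 46 genes that had a region, and 4210 over the 10 genes.

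**Figure D4:**
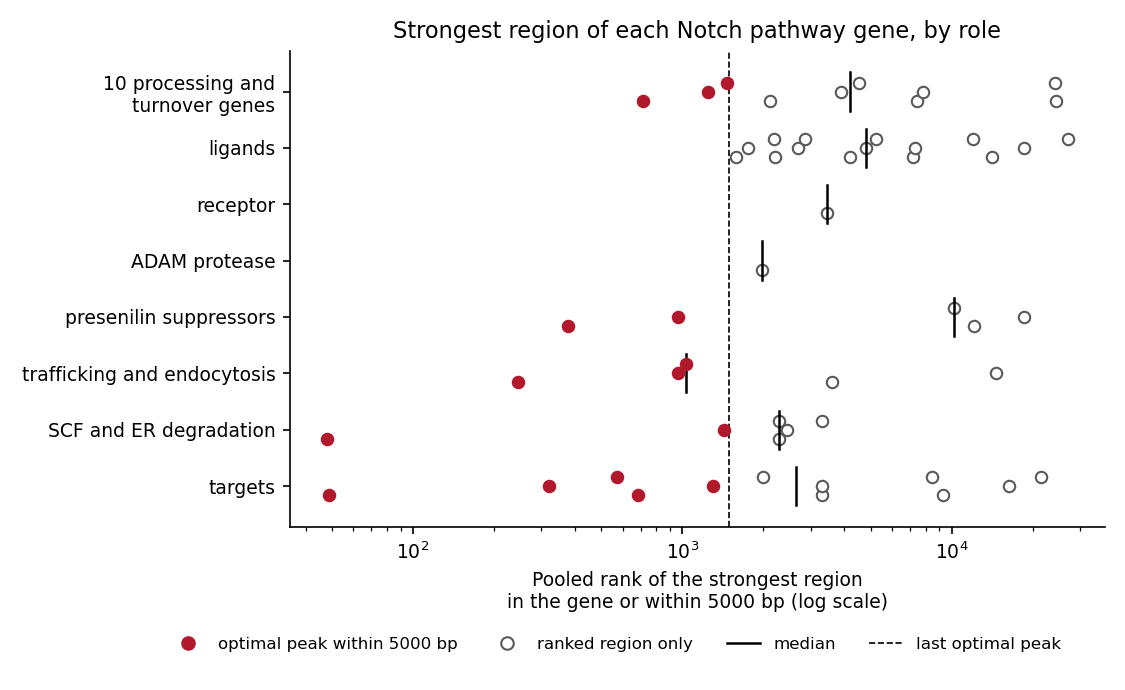
Pooled rank of the strongest region in each gene or within 5000 bp (log axis) for the 10 processing and turnover genes in the top row and the other Notch pathway genes below, by role. Filled circles are genes with an optimal peak in reach, open circles genes with a ranked region only, vertical ticks the medians and the dashed line the last optimal peak; the ligands lie entirely to the right of it, the strongest at rank 1584.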

How the data were processed

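LIN-39 ChIP-seq was measured in 2 biological replicates of 1 group, per the labels, with a control used upstream. The authors deposited ranked region lists per replicate and for both together, and an optimal list; no aligner, peak caller or cutoff of the optimal list is given in the sources used here. Signal values deposited for each region have no stated scale and here ranked the regions within a list. The deposited −log10 q was 3.51 for the 3 optimal peaks described and was not used for ranking. At the strongest pooled region of the other genes it was lower: 2.02 for sup-17, 1.29 for sel-12 and 1.13 for glp-1. It was 0.783 for hop-1, 0.748 for lag-1, 0.250 for aph-2 and 0.245 for aph-1. Counts and densities of ranked regions therefore include regions that may be background. The summit offset deposited per region, in bp, placed the summit. The ce10 lists were not used here, and neither alignments, the control among them, nor signal tracks were analysed here.

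All ce11 regions fell within the WBcel235 chromosome lengths, and the replicates shared 0 identical regions. The median region width was 336 bp in replicate 1 and 324 bp in replicate 2, so that 0 is no measure of their agreement. Genes came from Ensembl release 115; gene descriptions for neighbours came from RefSeq. A gene's start is its outer 5' end. Intergenic means outside protein-coding genes. Sequences were read from the RefSeq genome of WBcel235. Analyses used Python 3.11.15, numpy 2.4.6, pandas 2.3.3 and matplotlib 3.10.9. In simulated data the window search recovered 200 of 200 summits planted inside start windows. That checks the window arithmetic only, not the choice between neighbouring starts.

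With 1 group no condition could be compared and no test was made: values are descriptions. The members and lists were chosen with earlier results of these data known. All 10 members were named, as were other pathway genes with an optimal peak in reach, lin-12 and lag-2. The ligand genes osm-11 and dos-3 were named after their values were seen. At optimal summits of the 10 members, every protein-coding gene with the summit in its start window was named. At those of the other pathway genes the nearest start was named, but not every start that shared the summit. The listed gene lst-3 matched no annotated gene. Neighbours named beside weaker regions were added after their values were seen. Alternatives were other flanks, stronger regions only, each replicate alone, transcript starts and stricter overlap.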

Additional observations from a re-analysis of the deposited data

How the results depend on the processing

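The counts of genes with an optimal peak in reach depended on distance and strength. With a flank of 10000 bp, 6 of the 10 genes were counted (glp-1, sup-17 and aph-1 were added) and 2 of 5 gamma-secretase genes, beside 29% of all protein-coding genes; with flanks of 2000 and 1000 bp, 0 nuclear genes were counted in each case, beside 12.3% and 9.59% of all genes. With the stronger 744 optimal peaks, 1 of the 10 genes (sel-10), 0 gamma-secretase genes and 0 nuclear genes were counted, beside 10.8% of all genes, and 1 of the 10 in the start window, beside 4.66%. Leaving out a replicate gave 0 to 1 gamma-secretase genes and 0 to 1 nuclear genes, beside 18.9% of all genes for either replicate. The count over all 10 genes ranged from 2 to 3, with sup-17 in place of pen-2 and sel-8 without replicate 1. Counting the nearest start only, chosen after seeing the data, gave 0 nuclear genes, beside 5.14% of all genes.

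Among the strongest 15000 pooled regions the density per 10 kb was 1.79 over the 10 genes, 1.80 over the gamma-secretase genes and 2.22 over the nuclear genes. For pooled regions found in both replicates, also chosen after seeing the data, it was 1.09, 0.817 and 1.21 in the same order of groups. Both settings use fewer regions by construction, and the nuclear value was the higher under both. In the second setting, neighbouring sel-8 regions (pooled ranks 1470 and 15849, and 8164 and 28662) overlapped the same replicate regions. Such places were counted more than once, which raised the nuclear value, so no order of the groups is drawn from it. Leaving out a replicate gave 2.45 to 3.92 for the gamma-secretase genes. Requiring an overlap of 50% of both regions left 10 of 53 member regions found in both replicates, or 18.9%, against 24.4% of all pooled regions. Of 71 alternative values over 19 results, 42 stayed within 1.5 times the reported value, and of the 20 strongest ranks of single genes in 1 replicate, 10 did. No paired analysis was possible because there is 1 group. Unknown depth limits what a missing region shows: regions weaker than each list's last rank are not listed.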
